A study of Caenorhabditis elegans with 2 samples.

Results

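Regions at genes that the annotation classes only as ncRNA were described in a chromatin immunoprecipitation sequencing (ChIP-seq) study of TTX-3 in the nematode Caenorhabditis elegans. The members are the nuclear regions of the authors' pooled peak list whose summit, the point of highest signal, lay within 100 bp of a gene of Ensembl biotype ncRNA and not within 100 bp of a tRNA, snoRNA, snRNA, miRNA or rRNA gene. There were 999 of them, which is 3.33% of the 29988 nuclear regions, and the other 28989 nuclear regions served for comparison. Of those, 510 lay within 100 bp of a gene of one of the 5 small RNA classes and 28479 did not.

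The samples form 1 group of 2 biological replicates. Both came from strain OP68, which carries unc-119(ed3) III and the transgene wgIs68, an insertion that expresses TTX-3 with a C-terminal GFP-FLAG tag. Hermaphrodite late embryos were collected whole, 4 h after synchronization by egg bleaching, the chromatin was sonicated, and the tagged protein was precipitated with an antibody against GFP. All cells of the embryo contribute to the values, so occupancy in few cells and weak occupancy in many cannot be told apart. The age is given as unknown, and an untagged strain was not analysed here.

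TTX-3 belongs to the LIM-homeodomain transcription factors and is known for specifying the AIY interneuron and the identity of a few other neuron classes. Most genes of the ncRNA class have no known function. A few of them encode the RNA of an essential ribonucleoprotein: RNase P, which trims the 5′ ends of tRNA precursors, RNase MRP, which acts on ribosomal RNA precursors, and the signal recognition particle (SRP), which directs nascent secretory proteins to the endoplasmic reticulum. Animal RNase P, RNase MRP and SRP RNA genes are transcribed by RNA polymerase III, the enzyme that also makes tRNAs.

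Sequences under some of the strongest members show what the summits lie on. Each line gives the 101 bases centred on a summit, from RefSeq's WBcel235 assembly, on the strand of the nearest ncRNA gene and 5′ to 3′. Capitals mark bases inside that gene. The first 5 were chosen because the gene begins within the window, 12 to 24 bp before the summit. Not all strong members have this arrangement: at F52D10.9 the gene begins 108 bp before the summit, outside the window.
C14F11.14: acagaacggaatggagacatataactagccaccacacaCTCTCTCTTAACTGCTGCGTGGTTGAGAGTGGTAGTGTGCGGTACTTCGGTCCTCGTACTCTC
F52D10.7: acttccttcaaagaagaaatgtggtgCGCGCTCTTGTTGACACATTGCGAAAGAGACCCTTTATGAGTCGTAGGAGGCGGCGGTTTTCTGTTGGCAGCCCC
W01D2.7: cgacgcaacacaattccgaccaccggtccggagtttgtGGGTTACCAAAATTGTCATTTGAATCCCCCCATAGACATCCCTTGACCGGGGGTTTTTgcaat
mrpr-1: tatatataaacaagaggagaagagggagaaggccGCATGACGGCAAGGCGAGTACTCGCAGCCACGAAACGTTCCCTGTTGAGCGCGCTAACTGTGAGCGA
F08G2.13: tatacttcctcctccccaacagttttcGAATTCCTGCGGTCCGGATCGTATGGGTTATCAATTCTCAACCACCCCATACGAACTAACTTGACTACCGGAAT
The next 2 are shown because they hold words resembling the internal promoter of tRNA genes, as described with the motifs.
T28D6.15: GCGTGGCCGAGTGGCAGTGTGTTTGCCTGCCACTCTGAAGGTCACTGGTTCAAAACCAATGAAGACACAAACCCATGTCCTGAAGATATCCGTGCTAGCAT
K10H10.14: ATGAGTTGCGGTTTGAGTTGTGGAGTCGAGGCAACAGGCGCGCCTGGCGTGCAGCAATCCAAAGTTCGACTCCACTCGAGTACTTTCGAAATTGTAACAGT
The last 2 come from SRP RNA genes that align with each other at 94.0% identity, and both windows lie wholly inside the gene.
srpr-2.2: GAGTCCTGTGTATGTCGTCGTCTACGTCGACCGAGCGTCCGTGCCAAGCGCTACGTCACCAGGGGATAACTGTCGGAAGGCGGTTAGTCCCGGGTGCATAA
srpr-1.2: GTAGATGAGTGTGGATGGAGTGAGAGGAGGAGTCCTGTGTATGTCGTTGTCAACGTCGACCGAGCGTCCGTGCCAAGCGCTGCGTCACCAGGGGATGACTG

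The strongest member lay at C14F11.14 on the X chromosome (chrX:6207720-6208001, ce11). Its signal, the peak strength given by the authors with no stated scale between lists, was 308 in the pooled list, 161 in replicate 1 and 148 in replicate 2. It ranked 34 of the 30000 pooled regions, and its summit fell 12 bp downstream of the annotated 5′ end of the 147 bp gene. The summit lies 160 bp from the coding gene T13C5.6, inside the window from 1000 bp upstream to 300 bp downstream of that gene's 5′ end that is called a coding promoter window here.

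The second strongest was one of a pair. F52D10.7 gave 290 in the pooled list, 169 in replicate 1 and 130 in replicate 2, and its neighbour F52D10.9, 204 bp away, had 172, with 87.3 and 74.0. Both lie in the promoter window of ftt-2, which encodes a 14-3-3 protein. The genes are not copies of each other, since their sequences aligned at 48.2% identity, close to the 48.5% between C14F11.14 and F52D10.7. A similar pair on chromosome II lay 200 bp apart in the promoter window of W01D2.3. At W01D2.7, a gene of 58 bp, the pooled list gave 199.6, replicate 1 gave 90.4 and replicate 2 gave 103. At W01D2.9 it was 125, with 48.2 and 69.1, and the summit there lay 81 bp upstream of the gene. In each of the pairs the same region was the stronger in the pooled list and in both replicates. The regions at W01D2.7 and W01D2.9 overlap, and those at F52D10.7 and F52D10.9 do not. A spacing of about 200 bp was not particular to these pairs. At C14F11.14, for example, summits lay 12 and 212 bp downstream of the 5′ end. At rpr-1 they lay at 21 and 221 bp, and at mrpr-1 at 16 and 216 bp. Whether such neighbouring regions are separate peaks was not tested.

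On chromosome III the strongest member was at T28D6.15, in an intron of the alpha-tubulin gene tba-7, with 206 in the pooled list, 99.3 in replicate 1 and 107 in replicate 2. A second ncRNA gene, T28D6.10, has its 5′ end 3 bp from this summit and another, T28D6.13, also lies within 100 bp, so the region cannot be given to one of them. K10H10.14 on chromosome II, 978 bp from dhs-8, had 183, with 91.2 and 95.9. A shorter annotated ncRNA gene, K10H10.11, lies inside the span of K10H10.14. F08G2.13, a gene of 75 bp, had 154, with 74.95 and 78.2, and its summit fell 23 bp inside the gene.

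Replicates were close at most of the strongest members and apart at a few. At F31F7.6, the strongest member on chromosome V, replicate 1 gave 88.6 and replicate 2 gave 41.4. At F58F12.8 the order was the reverse, with 44.0 and 79.1. Apart from rpr-1 at 227, the remaining members of the 20 strongest had pooled signals between 108 and 199, and the lists of both replicates held all 20.

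**Figure D1:**
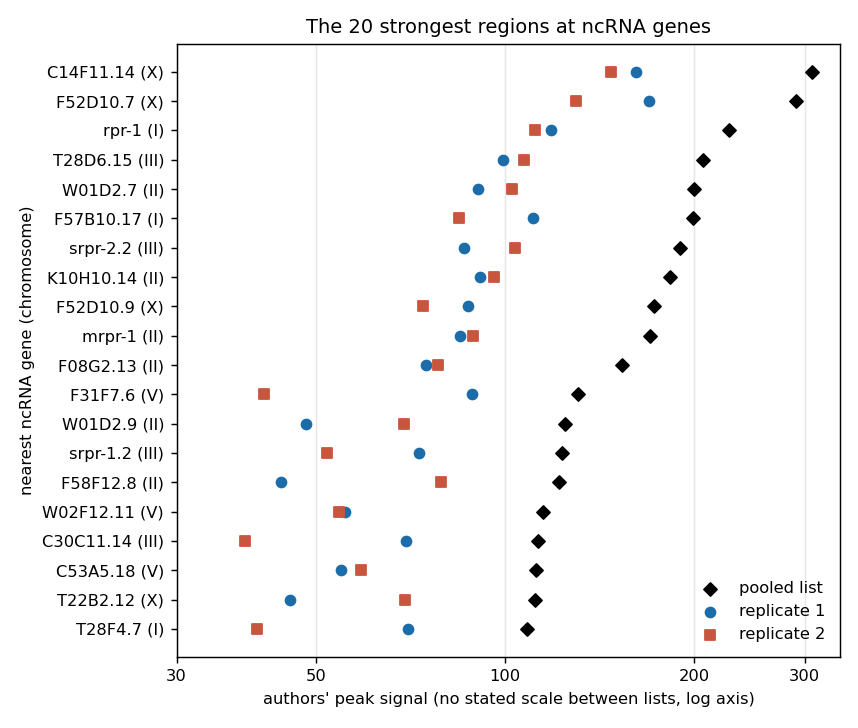
Signal of the 20 strongest members in the pooled list (diamonds), replicate 1 (circles) and replicate 2 (squares) on a log axis, named by the nearest ncRNA gene with its chromosome. Pooled values run from 108 at T28F4.7 to 308 at C14F11.14, and every member has a value in both replicates.

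Genes for RNase P, RNase MRP and SRP RNA were among the strongest members. Of 10 named RNA genes listed for description, 7 had a member and 6 had one in the authors' optimal list, the set of 700 regions that passed the irreproducible discovery rate (IDR) step and that are the 700 strongest of the pooled list (2.3% of all nuclear regions). Among all 7764 nuclear ncRNA genes, 14.9% had a member and 0.914% an optimal one. Of the listed genes, the 4 SRP genes on chromosome III and the RNase P and RNase MRP genes were the 6. The 3 without any region were yrn-1, which encodes the Y RNA, rncs-1, a double-stranded RNA known to inhibit Dicer, and tts-1, a long RNA found on ribosomes.

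The RNase P RNA gene rpr-1 lies in an intron of ints-8, which encodes a subunit of the Integrator complex, on the opposite strand (chromosome I, 13463955 to 13464207). Its main region reached 227 (rank 75) in the pooled list, and the replicates gave 118 and 112. A second region near its 3′ end had 60.7, with 58.7 and 20.9. The RNase MRP RNA gene mrpr-1 on chromosome II had 170 and rank 153 at the main summit and 56.9 at a second summit past its 3′ end. The main values in replicates 1 and 2 were 84.8 and 88.8. The main summits lay 21 bp and 16 bp downstream of the 5′ ends of rpr-1 and mrpr-1. The 2 RNAs align at 50% identity, and no 36-base word of either summit window occurs elsewhere in the nuclear genome.

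Among the SRP RNA genes, srpr-2.2 in an intron of the kinesin gene klp-6 had the highest pooled signal, 190, and replicate values of 85.9 and 104. The values at srpr-1.2, in an intron of the choline kinase gene ckb-2, were 123 pooled, 72.9 and 52.1. For srpr-1.1, outside coding genes, they were 88.2, 46.1 and 39.6. At srpr-2.1 the pooled signal was 73.7, replicate 1 gave 35.7 and replicate 2 had no summit within 100 bp. That summit lay on the last base of the gene, while those of the 3 others lay 92 to 139 bp from the 5′ end. The fifth SRP gene, srpr-3 on chromosome V, had 21.5 at rank 24980, with no summit in replicate 1 and 22.0 in replicate 2.

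The order of the SRP genes is uncertain because reads can be shared between copies. Alignment gave 98.3% identity between srpr-1.1 and srpr-1.2 and 99.0% between srpr-2.1 and srpr-2.2, and 94.0% to 94.3% across these pairs. For srpr-3 it was 81.7% to 82.7% to the others. Words of 36 bases that recur in the nuclear genome made up 100% of those in the srpr-1.1 window, 89.4% in srpr-1.2, 71.2% in srpr-2.2 and 7.58% in srpr-2.1. How the authors treated reads that map to several places is not given in the sources used here.

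**Figure D2:**
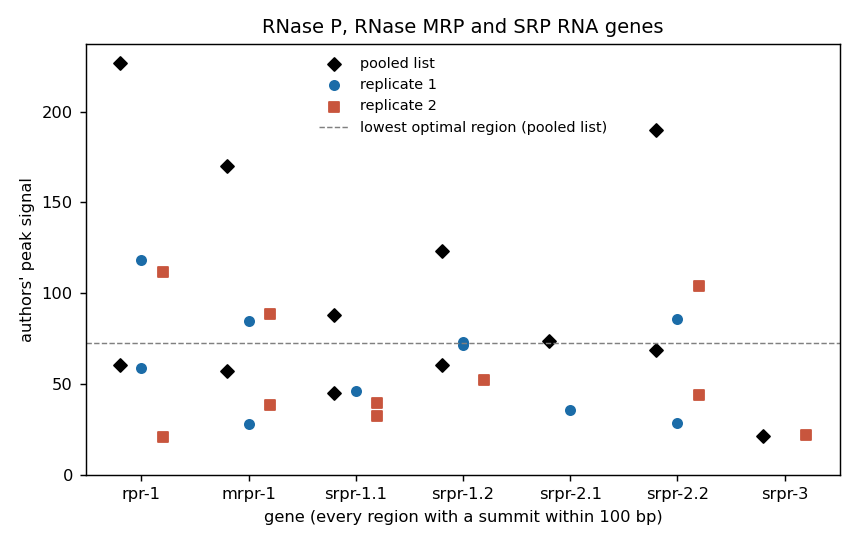
Signal of every region with a summit within 100 bp of an RNase P (rpr-1), RNase MRP (mrpr-1) or SRP (srpr) RNA gene, in the pooled list (diamonds), replicate 1 (circles) and replicate 2 (squares), on a linear axis. Main regions of rpr-1, srpr-2.2, mrpr-1 and srpr-1.2 stand at 227, 190, 170 and 123 in the pooled list, and srpr-3 at 21.5, below the lowest optimal region (dashed line).

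Over all 999 members the signal ran from 19.4 to 308, with a median of 29.4 and quartiles of 24.0 and 39.6. The other nuclear regions had a median of 26.9 and an upper quartile of 33.7, and reached 776. The median rank was 11794 for the members and 15118 for the others. None of the 20 first ranks was a member and 3 of the first 100 were, while 394 members ranked below 15000, the middle of the list. The list holds background regions by design.

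Of the members, 52 were in the optimal list, which is 5.21% (exact 95% interval 3.91% to 6.77%, counting error only), against 2.3% of all nuclear regions. The share was 2.2% among all other nuclear regions (2.03% to 2.37%), 1.43% among those away from small RNA genes (1.29% to 1.57%), and 45.3% among those within 100 bp of a small RNA gene (40.9% to 49.7%). Since there is 1 group and 1 pooled list, no test over samples applies, and regions of one list are not replicates. Among the optimal regions the median signal was 91.6 for the 52 members and 95.1 for the 406 regions away from both kinds of RNA gene. The weakest optimal members were T24B8.10 and F59F5.9 at 73.9 and srpr-2.1 at 73.7, and the strongest members outside the list were Y48B6A.21 at 71.9, F40F9.15 at 71.8 and C08B11.11 at 71.6.

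Base composition and position moved with this share. The 101-base windows of members had a median GC content of 41.6%, against 32.7% at regions away from both kinds of RNA gene, and 51.5% against 45.5% among optimal regions. Where GC content was 40% to under 50%, 3.52% of 341 members and 3.75% of 4931 other regions were optimal, with overlapping intervals. At 50% or more the shares were 15.9% of 201 members and 8.77% of 1368 others. They were 1.30% and 0.669% at 30% to under 40%, where the intervals overlap, and 2.67% and 0.248% under 30%, where 4 members were optimal. The part of base composition in the difference was not tested.

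Inside coding promoter windows 32 of 363 members were optimal, 8.82%, against 3.50% of the other regions there. Outside them 20 of 636 were optimal, 3.14% (1.93% to 4.82%), against 0.436% (0.348% to 0.540%). With both properties held, a split chosen after the values were seen, the promoter windows of GC content 50% or more had shares of 18.6% for 102 members (11.6% to 27.6%) and 16.2% for 616 other regions (13.4% to 19.4%). Outside promoter windows at the same GC content they were 13.1% for 99 members (7.18% to 21.4%) and 2.66% for 752 others (1.63% to 4.08%). The 13 optimal members there included rpr-1, srpr-1.1, srpr-1.2, srpr-2.2 and T28D6.15, the last with words resembling the internal tRNA promoter. As given above, most words in the windows of these SRP genes recur in the nuclear genome. The share of this class without these members was not calculated. At GC contents under 50%, where most members lie, the shares were 4.98% of 261 members (2.68% to 8.37%) and 2.58% of 8597 others (2.26% to 2.94%) inside promoter windows, with overlapping intervals. Outside them they were 1.30% of 537 members (0.526% to 2.67%) and 0.346% of 18514 others (0.266% to 0.441%). The intervals overlapped in both classes inside promoter windows and in neither class outside them. They cover counting error only, and an overlap does not show that shares are alike.

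**Figure D3:**
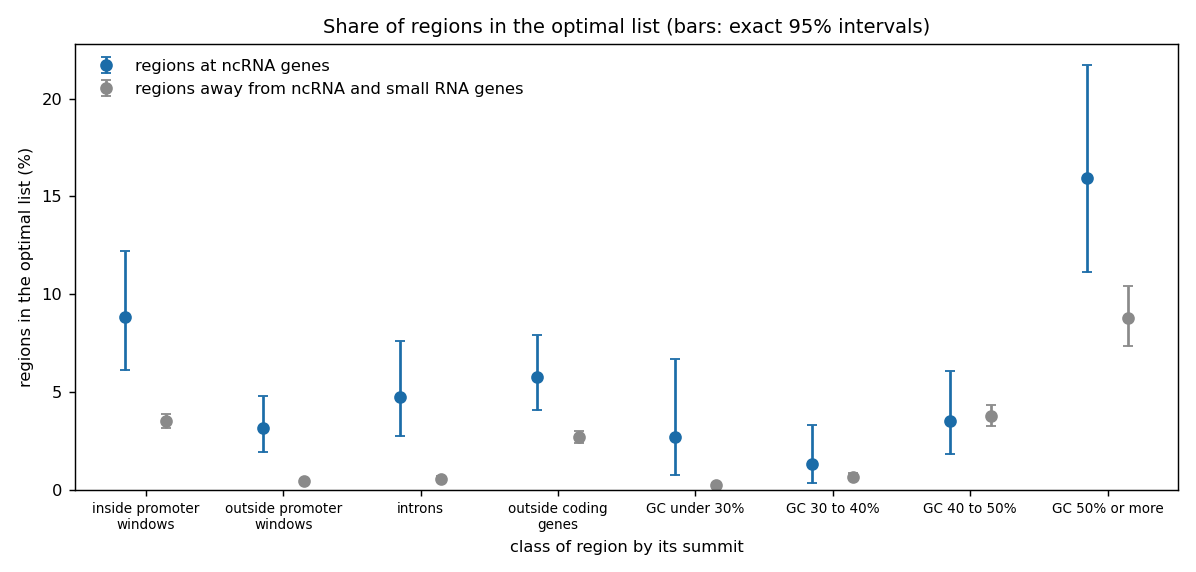
Percent of regions in the optimal list by the location and the GC content of the summit window, for members (blue) and for regions away from ncRNA and small RNA genes (grey). Bars are exact 95% intervals that cover counting error only, and in the GC class of 40% to 50% the points of the sets lie at 3.52% and 3.75%.

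Regions just past the limit of 100 bp were not at the level of other regions in their optimal share. By distance from the gene, this share was highest for summits inside it, with overlapping intervals in all classes. It was 6.75% of 489 members with the summit inside an ncRNA gene, 5.13% of 156 at 1 to 25 bp, 5.36% of 112 at 26 to 50 bp, 1.55% of 129 at 51 to 75 bp and 2.65% of 113 at 76 to 100 bp. In the 421 regions at 101 to 200 bp, which are not members, it was 3.56% (2.01% to 5.81%). Median GC content fell from 45.5% inside the gene to 36.6% at 76 to 100 bp. The part of base composition in this order was not tested. The 5 members just inside the limit had signals of 29.8, 43.2, 29.3, 28.2 and 49.3, and the 5 regions just outside had 20.5, 28.9, 22.6, 19.9 and 61.8.

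Summits were spread along the genes. For the 926 members whose gene is annotated on 1 strand only, the median summit lay 74.5 bp downstream of the 5′ end. Of these, 26.03% lay upstream of it, 15.98% in the first 50 bp and 50.3% inside the gene. Among the 50 optimal members of this kind the median was 51 bp, with 12 upstream, 13 in the first 50 bp and 32 inside the gene. Of the 52 optimal members 18 lay within 100 bp of 2 or more ncRNA genes, for which the position is that of the nearest gene alone. Of the 20 strongest members, those with 1 ncRNA gene in reach differed in position. The summit was 12 to 24 bp downstream of the 5′ end at C14F11.14, F52D10.7, rpr-1, W01D2.7, mrpr-1 and F08G2.13. It was 36 bp downstream at F57B10.17, 87 to 108 bp at C53A5.18, srpr-1.2, W02F12.11 and F52D10.9, and 259 bp at T28F4.7. At C30C11.14, F58F12.8 and W01D2.9 it lay 45, 71 and 81 bp upstream.

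**Figure D4:**
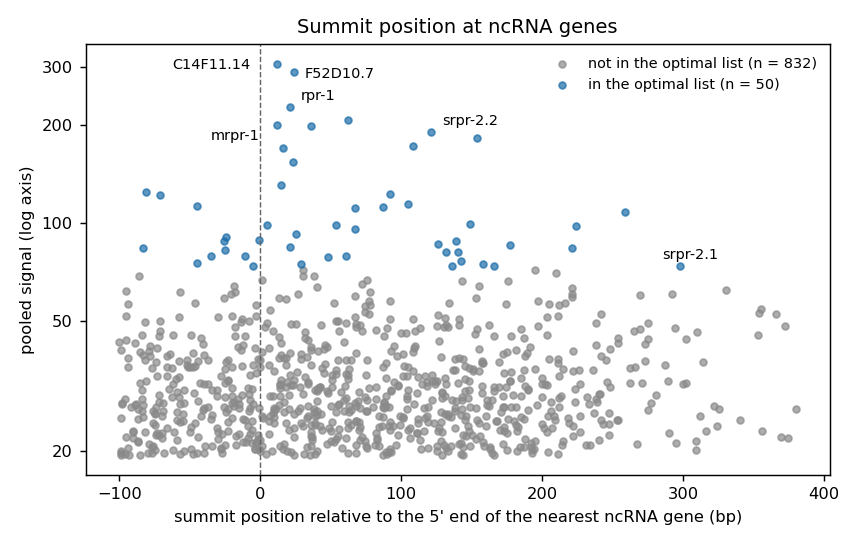
Pooled signal (log axis) against the summit's distance from the annotated 5′ end of the nearest ncRNA gene, with positive values downstream, for 882 members at genes annotated on 1 strand (44 fell outside the axis range). The 50 optimal members (blue) extend from upstream positions to 298 bp at srpr-2.1, and the 3 highest points lie within 25 bp downstream of the 5′ end.

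By location, 607 members lay outside coding genes (60.8%), 337 in introns (33.7%), 31 in UTR exons and 24 in coding exons (2.40%). In regions away from both kinds of RNA gene 41.5% lay outside coding genes, 43.5% in introns and 9.29% in coding exons. A coding promoter window held 363 members (36.3%, 33.3% to 39.4%), against 32.4% of all nuclear regions. Among optimal members 32 of 52 were in such a window (61.5%, 47.0% to 74.7%), below the 79.3% of the 406 optimal regions away from both kinds of RNA gene (75.04% to 83.1%), and 16 were in introns (30.8%, 18.7% to 45.1%, against 17.0%, 13.5% to 21.0%, with overlapping intervals). Of these 16, 12 were outside promoter windows. There were 8 optimal members outside both coding genes and promoter windows.

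Some of the 32 optimal members in promoter windows are given with the coding genes there, as examples. F57B10.17 (199 pooled, 111 in replicate 1 and 84.4 in replicate 2) was in the windows of tre-1, a trehalase, and dad-1, a subunit of the oligosaccharyltransferase. W02F12.11 (115, 55.7 and 54.4) was at dlst-1, a subunit of the 2-oxoglutarate dehydrogenase complex. C30C11.14 (113, 69.7 and 38.5) was at rpn-3, a proteasome subunit, and hsp-110, a chaperone. C53A5.18 (112, 54.9 and 58.9) was at ril-1 and hda-1, the latter a histone deacetylase. Weaker ones lay at the ribosomal protein gene rps-1 and ifet-1 (F56F3.11, 98.6), and at the ribosomal protein gene rpl-5 and col-38 (F54C9.16, 85.8). Others lay at trap-3 and sec-61.B, the latter a subunit of the translocon (Y38F2AR.17, 98.2), and at pdi-2, a protein disulfide isomerase (C07A12.19, 79.1). Members of similar signal lay at tag-353 and cup-2 (F25D7.11, 99.1), at F57G12.1 (F57G12.12, 87.6) and at nhr-47 and dnj-19 (C24G6.10, 84.5). Of the optimal members, 14 lay in the windows of 2 or more coding genes. Because such a summit is near a coding start and an ncRNA gene at once, the data do not assign it to either.

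Intronic members had 285 host genes, among the 336 with a single host. The nearest ncRNA gene was on the opposite strand of the host at 219, on the same strand at 89 and annotated on both at 28. The same-strand share was 28.9% of those with 1 strand, near the 32.2% of all ncRNA genes that lie in an intron of 1 coding gene. Among the 16 optimal intronic members 8 were on the same strand, 7 on the opposite and 1 on both. The host with the most members was ptp-3, a receptor tyrosine phosphatase, with 4, of which the strongest reached 28.1. Beside the RNA genes named, optimal intronic members included C29E6.11 in trpa-1, a TRP cation channel (98.4, with 50.6 and 53.1 in the replicates), which was the strongest member on chromosome IV. Below C29E6.11 came F16A11.7 in ppfr-1 (89.6), C04A2.9 in egl-27 (87.9), F40F11.6 in F40F11.3 (82.8), T28B11.14 in T28B11.1 (81.4) and F13D12.11 in gpb-1 (81.3). Weaker still were F52B10.17 in hst-3.2, a heparan sulfotransferase (78.4), and AH10.10 in par-1, a polarity kinase (76.6). M57.3 lay in unc-33, a CRMP protein of axon growth (75.4). The weakest were C40H5.15 in C40H5.2 (74.7) and C16C2.7 in ocrl-1 (74.1). In exons, the strongest were R12C12.13 in a coding exon of R12C12.6 (83.8) and Y34B4A.15 in a UTR exon of rga-8 (69.0, not optimal).

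Members were frequent on the X chromosome, as the genes are. It held 278 members (27.8%), 14.3% of the regions away from both kinds of RNA gene, and 32.5% of the 7764 nuclear ncRNA genes. The optimal share was 3.96% of members on X, 7.98% on II, and 3.98% to 5.83% on the others, with overlapping intervals.

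Summits of both replicate lists lay within 100 bp of 283 members, 28.3% (25.6% to 31.2%), against 22.4% of all nuclear regions. It was 21.4% of the regions away from both kinds of RNA gene (20.9% to 21.9%). A summit of replicate 1 alone was found at 289 members, of replicate 2 alone at 270, and of neither at 157 (15.7%). Neighbouring members can match the same replicate summit, as both regions at lfor-2 did (25.3 in replicate 1 for each). Of the 52 optimal members 47 were in both lists (90.4%, 79.0% to 96.8%), against 92.9% of the 406 optimal regions away from both kinds of RNA gene.

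Some optimal members had a summit of 1 replicate only within 100 bp. These were F56F3.11, C07A12.19 and srpr-2.1 for replicate 1 and C16C2.7 and T24B8.10 for replicate 2. Across the 283 members in both lists, Pearson's r of the log2 signals was 0.642 and Spearman's rho 0.467, and across the 6091 other regions in both lists they were 0.567 and 0.316. These are descriptions over regions that share a library. Among the 47 optimal members in both lists the ratio of replicate 1 to replicate 2 had a median of 1.14, ran from 0.429 at LLC1.120 to 2.16 at F54C9.16, and was within 1.5-fold for 33. Ranked within each replicate's own list, 41 optimal members were among the 700 strongest of replicate 1, 33 of replicate 2 and 25 of both.

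**Figure D5:**
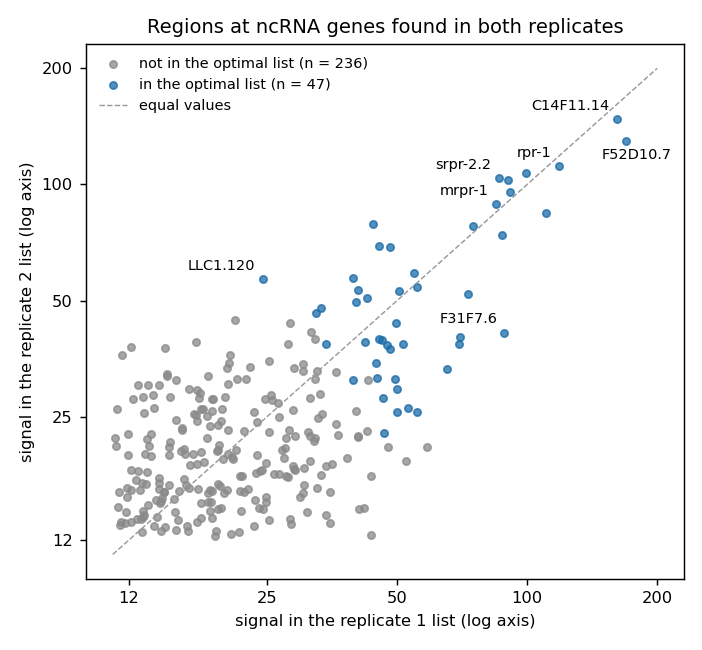
Signal in the replicate 2 list against signal in the replicate 1 list, both on log axes, for the 283 members with a summit of both replicates within 100 bp. The 47 optimal members (blue) spread around the line of equal values, with LLC1.120 at 24.4 and 57.0 and C14F11.14 at 161 and 148, and the 236 others (grey) form a cloud at low values.

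Counted by gene, 1380 of the 7764 nuclear ncRNA genes (17.8%) had a pooled summit within 100 bp and 197 an optimal one, 2.54% (2.199% to 2.91%), against 1.62% of all nuclear genes that are not protein-coding. Of those 26917 genes 15363 are piRNA genes, of which 0.0195% had one, and without them the background was 3.75% of 11554 genes, above the ncRNA share. The share was 27.1% for tRNA genes, 14.5% for snoRNA, 5.43% for snRNA, 1.92% for miRNA, 1.03% for lincRNA and 0.188% for pseudogenes. Most of the 197 were near a summit that also lay by a small RNA gene, since 71 had an optimal member. The share with an optimal member was 0.577% of the 2080 genes under 100 bp, 0.779% of the 4235 of 100 to 199 bp and 1.79% of the 1449 of 200 bp or more.

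A block of 38 ncRNA genes with the identifiers WBGene00044000 to WBGene00045999, a split chosen after the values were seen, had an optimal member at 8 genes, 21.1% of the block. The other 7726 genes had one at 63, 0.815%. The 8 were rpr-1, mrpr-1, srpr-1.1, srpr-1.2, W01D2.7, F08G2.13, K10H10.11 and T28D6.10. Besides the RNA genes listed, other ncRNA genes with a name had weaker members, none of them optimal. The pooled signal was 60.6 at linc-171, with 16.8 and 20.003 in the replicates, and 48.0 and 36.3 at lfor-2. At tts-2 it was 51.9, with 34.8 in replicate 1 and no replicate 2 summit within 100 bp.

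Motifs were searched on both strands of the 101-base windows. TAATTA, a core word bound by many homeodomain proteins, was in 48 members (4.80%), against 6.89% of regions away from both kinds of RNA gene. Of the optimal members 1 of 52 held it, F52B10.17 (1.92%, 0.0487% to 10.3%), against 7.64% of the optimal regions away from both kinds of RNA gene (5.25% to 10.66%), with overlapping intervals. The word holds A and T alone, and the median GC content of these sets was 51.5% and 45.5%. The part of base composition was not tested. GTTCGANNC, the B box of the internal tRNA promoter, was in 7 members (0.701%), against 0.727% of regions away from small RNA genes and 24.1% of those near them. K10H10.14 was the optimal member with it. A looser form that contains it, GTTCNANNC, and a form of the A box, the other word of that promoter, were added after the sequences had been seen. The looser form was in 23 members (2.30%, against 2.7% and 33.9%), among them K10H10.14, T28D6.15 and T22B2.12 in the optimal list. The A box form was in 3 members (0.300%, against 0.172% and 5.88%), of which T28D6.15 was optimal, so this window held both words.

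GCGCAC was searched because it had been seen in earlier results of these data, so it was not chosen independently of these peaks. It was in 53 members (5.31%), against 2.21% of regions away from both kinds of RNA gene. The word holds G and C at most places, and the median GC content of these sets was 41.6% and 32.7%. How far base composition enters was not tested. Among optimal regions the shares were 8 of 52 members (15.4%, 6.88% to 28.1%) and 18.2% of the 406 others (14.6% to 22.3%). The members with it included F52D10.7 and F31F7.6, both among the 20 strongest. A match describes the letters of a window and identifies no bound factor.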

How the data were processed

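Chromatin immunoprecipitation sequencing of GFP-tagged TTX-3 was measured in 2 biological replicates of 1 group. The authors deposited peak lists on ce11 of 30000 regions for each replicate and for the replicates pooled, and an optimal IDR list of 700 regions, which are the 700 strongest of the pooled list. Per the deposited file descriptions, 1 control alignment file served both replicates. For the aligner, the peak caller and the IDR cut-off no statement was found ("not given in the sources used here"), and lists on ce10 were not used. The signal value that the authors deposited for each region has no stated scale between lists and was used to rank and describe regions and to set the replicates side by side. The lists hold no read counts, so depth is unknown.

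The members and lists were chosen with earlier results of these data known. Regions were placed by their summit on the Ensembl 115 annotation of WBcel235, and 12 mitochondrial regions were left out. Of the ncRNA genes 7741 were named by Ensembl and 22 by RefSeq through the same coordinates. A member was in a replicate when a summit of that list lay within 100 bp. Location was assigned to coding exon, UTR exon, intron or outside coding genes, in that order. Intervals are exact (Clopper-Pearson, 95%) and cover counting error only. A repeated word is a 36-base word that occurs again in the nuclear genome on either strand. Identity is from global alignment (Biopython 1.88), over all alignment columns. The regions named are the 20 strongest members, those at genes with a name of their own, the strongest by location and chromosome, and those of a list of named RNA genes (rpr-1, mrpr-1, yrn-1, rncs-1, tts-1 and the 5 srpr genes, since terc-1 was not found and no spliced leader gene is of this class). Other optimal members are named as examples chosen after their values were seen. Scripts ran in Python 3.11.15 with scipy 1.17.1. The rule that picks members by distance was checked on planted summits. The steps for replicates, location, motifs and repeated words were not checked in that way.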

Additional observations from a re-analysis of the deposited data

How the results depend on the processing

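Of 44 alternatives, 28 left a value within its interval or within 1.5 times its count, and 16 moved it. The members numbered 489 when the summit had to lie inside the gene and 636 outside coding promoter windows. Their share in the optimal list was 3.14% outside promoter windows (other regions 0.436%), 2.00% for the 350 strongest regions (0.558%) and 20.02% for the 3000 strongest (8.63%), and it stayed above that of other regions in each. It was 4.66% without the RNase P, RNase MRP and SRP RNA genes and 4.85% without windows holding a repeated 36-base word (others 1.47%), both chosen after seeing the data. Using the list of 1 replicate, without replicate 1 or 2, gave 923 and 991 members, shares of 5.31% and 5.65% among the 700 strongest of that list (others 1.54% and 1.40%) and median signals of 18.2 and 17.4 on those lists' own scales. The median signal was 28.1 outside promoter windows. The share in both replicate lists was 31.3% for summits inside the gene, 24.5% outside promoter windows, and 17.5% and 40.3% for matching within 50 and 200 bp. The promoter share was 22.9% for a window of 500 bp upstream to 150 bp downstream. With 100 bp searched on each side, TAATTA was in 10.2% and GCGCAC in 9.91% of members, and GTTCNANNC in place of GTTCGANNC was in 2.30%. For windows, distances and list lengths the range searched was larger or smaller, and the cause of the changes was not tested. No paired analysis was possible because the samples form 1 group. Unknown depth limits every share. A region counted as missing from a replicate list had no summit there within 100 bp, so a summit further away was not counted. Such a region may be undetected rather than absent.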
